A study of Rattus norvegicus with 9 samples.

Results

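Serpins and the other secreted or cytosolic protease inhibitors of the rat prostate were followed in 66 genes, out of 15163 genes to which a probe of the array could be matched. They were taken by name: every gene whose symbol begins with Serpin, Spink, Wfdc, Mug or Cst and a digit, together with A2m, Csta, Slpi and Pi3, where a probe carried their RefSeq accession. A further gene that this rule takes is not reported here and is not among the 66. No measured value was used to choose the 66 genes. The 66 genes were read by 79 probes, and comprised 12 clade A serpins, 13 clade B serpins, 6 serpins of clades C to G, 3 of clades H and I, 7 Kazal type inhibitors, 12 inhibitors of the whey acidic protein (WAP) type, 10 cystatins and 3 macroglobulins.

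The arrays measured RNA of whole prostates from male Sprague Dawley rats that were 6 weeks old when purchased, in 3 groups of 3 arrays. Sham rats had a sham castration and received corn oil and the vehicle of ghrelin. BPH rats, the model of benign prostatic hyperplasia, were castrated and received dihydrotestosterone under the skin at 3 mg/kg daily for 4 weeks, with the same vehicle. BPH+ghrelin rats had the castration and the dihydrotestosterone of the BPH group and in addition rat ghrelin by mouth at 20 nmol/kg daily for the last 2 weeks. Castration and dihydrotestosterone came together, so that their effects cannot be told apart in the comparison of BPH with sham. The sources used here do not say which rats of each group gave the arrays, and the p-values measure only the spread between these arrays.

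Serpins are suicide inhibitors: the protease cleaves an exposed loop, the serpin snaps into a new fold, and the enzyme is trapped in a covalent complex. Clade E serpins block the plasminogen activators, clade A holds the major inhibitors of plasma, and clade B holds mostly intracellular inhibitors that protect cells from their own or from leukocyte proteases. Kazal and WAP type inhibitors are small disulfide-rich proteins that plug the active site of serine proteases and are typical secretions of glandular epithelium, cystatins block lysosomal cysteine proteases, and macroglobulins cage proteases of any class. The prostate secretes kallikreins and other serine proteases into the seminal fluid, and their inhibitors are secreted with them.

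Promoter sequences were taken from RefSeq (build GRCr8), which held one for 48 of the 66 genes. Those of 3 genes on which the results below turn are given 5′ to 3′, from 250 bases before to 50 bases after the start of the gene. Serpine2 lies on the minus strand at chr9:88637153-88637452, Mug1 on the plus strand at chr4:156748145-156748444 and Mug1l1 on the plus strand at chr4:156652123-156652422. Capitals mark matches, on either strand, to 6 short motifs: the TATA box TATAAA, the GC box GGGCGG, the CCAAT box CCAAT, the androgen receptor half-site AGAACA, the AP-1 site TGANTCA and the E-box CACGTG. Serpine2 is shown for its run of GC boxes, and the pair Mug1 and Mug1l1 because Mug1l1 was called and Mug1 is its near relative.
Serpine2: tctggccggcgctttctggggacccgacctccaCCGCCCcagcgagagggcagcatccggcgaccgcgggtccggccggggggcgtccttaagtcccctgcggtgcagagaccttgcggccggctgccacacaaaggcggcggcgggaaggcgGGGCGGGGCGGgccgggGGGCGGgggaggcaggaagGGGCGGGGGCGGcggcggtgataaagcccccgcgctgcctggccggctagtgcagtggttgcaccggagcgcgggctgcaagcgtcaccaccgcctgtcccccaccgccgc
Mug1: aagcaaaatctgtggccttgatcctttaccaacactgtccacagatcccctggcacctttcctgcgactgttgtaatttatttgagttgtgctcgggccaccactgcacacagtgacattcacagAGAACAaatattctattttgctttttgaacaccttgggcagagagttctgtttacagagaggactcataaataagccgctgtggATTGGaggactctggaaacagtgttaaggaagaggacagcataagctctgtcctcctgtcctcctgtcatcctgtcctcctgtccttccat
Mug1l1: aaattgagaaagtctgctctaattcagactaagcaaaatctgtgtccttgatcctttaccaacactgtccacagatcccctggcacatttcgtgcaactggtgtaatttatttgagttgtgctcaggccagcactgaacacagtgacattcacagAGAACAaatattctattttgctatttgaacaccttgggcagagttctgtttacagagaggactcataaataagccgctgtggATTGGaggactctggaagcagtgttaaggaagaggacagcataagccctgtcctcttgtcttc
The Serpine2 promoter held 6 matches to the GC box and none of the other 5 motifs, with 2 pairs of GC boxes that overlap by 1 base or directly adjoin. A GC box was present in 33.1% of 33469 rat promoters of this length. Mug1 and Mug1l1 shared 257 of 270 aligned bases (95.2%), and each held 1 androgen receptor half-site, present in 20.7% of promoters, and 1 CCAAT box on the opposite strand, present in 37.5%. Over the 31 tested inhibitor genes with a promoter, 8 held the half-site, 10 the GC box, 11 the CCAAT box, 5 the TATA box (14.2% of all promoters), 6 the AP-1 site (7.33%) and 0 the E-box (6.42%). The motifs were chosen with the results known, and a match is only a match of letters.

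Values are log2 of the spot signal after quantile normalization, 1 unit being a doubling. All 7 measured markers of rat prostate secretory epithelium were well above background on all 9 arrays. Between 61.4% (sham replicate 2) and 75% (BPH replicate 2) of probes were well above background, and 0 spots were saturated. Slides were inferred from the scan date in the array headers, and arrays of the same scan date were taken as 1 slide. On this reading the 3 BPH arrays shared 1 slide with BPH+ghrelin replicate 1. BPH+ghrelin replicates 2 and 3 were on another together with 2 sham arrays (replicates 1 and 2), and sham replicate 3 lay on the third. BPH and sham shared no slide, so that their difference has no within-slide value, and a slide term in that comparison rests on the BPH+ghrelin arrays. A fixed slide block left 2, 2 and 84 of all genes called by limma and 0 inhibitor genes, with 4, 9 and 5 at an unadjusted p under 0.05 in BPH against sham, BPH+ghrelin against BPH, and BPH+ghrelin against sham, and within-slide values are given beside the called inhibitor genes where both groups shared a slide. One of the 3 arrays of every group had values intermediate between its fellows at most of 22568 probes. These were BPH replicate 2 (70.5% of probes), BPH+ghrelin replicate 2 (68.2%) and sham replicate 3 (72.7%). The same arrays lay in between for 35, 31 and 30 of the 42 inhibitor genes tested. The p-values assume arrays that vary independently. When these 3 arrays were left out, an alternative added after seeing the data, 3, 0 and 2 of all genes and 0 inhibitor genes had an adjusted p under 0.05 in limma, while 1, 5 and 2 inhibitor genes had an unadjusted p under 0.05 in BPH against sham, BPH+ghrelin against BPH, and BPH+ghrelin against sham. The differences of the called inhibitor genes in that fit are given beside each gene.

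Of the 66 genes, 21 were well above background on 0 of 9 arrays, among them the plasma serpins Serpinc1 (antithrombin), Serpind1 (heparin cofactor II) and Serpinf2 (antiplasmin) and the epididymal cystatins Cst11 and Cst12. Testing required a probe that was well above background on 3 or more of the 6 arrays compared, and 42 genes met this in at least 1 comparison. The others were the 21 above and Serpina12, Serpina1f and Spink1, each above background on 1 or 2 arrays. A gene above background in a single group had to differ to be compared, which applied to 1 gene in each of the 3 comparisons.

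The shares over all genes given beside the counts include transcripts that the array knows by an accession without a matched gene symbol, each accession counted as 1, which made up 8029 of 19552, 8131 of 19749 and 7886 of 19197 features tested in BPH against sham, BPH+ghrelin against BPH, and BPH+ghrelin against sham. Over the features with a gene symbol alone, 4.76%, 1.67% and 6.75% were called, and 27.1%, 21.9% and 24.6% had an unadjusted p under 0.05.

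In BPH against sham, 39 inhibitor genes were tested, of which 21 had a higher and 18 a lower mean in BPH. Spink8 alone passed the test (limma, adjusted p under 0.05), 2.56% of the inhibitor genes against 4.33% of all 19552 features tested, and 2.18% that were called and lower. An unadjusted p under 0.05 was reached by 12 (30.8%, all genes 26.5%), and for 12 the BPH values did not overlap those of sham (30.8%, all genes 31.3%). The fitted difference was 2-fold or more upward for Mug1 and Mug1l1 (5.13%, all genes 3.53%) and downward for Csta, Slpi, Spink5, Spink8 and Wfdc5 (12.8%, all genes 4.63%). Mug1 passed the filter through its BPH arrays alone, and its values support no more than the bound given below. The median log2 difference was 0.03, beside 0.04 over all genes.

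In BPH+ghrelin against BPH, 42 inhibitor genes were tested, with 19 higher and 23 lower means in BPH+ghrelin. Serpine2 and Mug1l1 passed the test and both were lower, 4.76% of the inhibitor genes where 1.48% of all 19749 features were called and 0.987% were called and lower. An unadjusted p under 0.05 was reached by 10 (23.8%, all genes 21.1%), of which 9 were lower and 1, Spink7, was higher. The arrays did not overlap for 17 (40.5%, all genes 39.2%), 11 lower and 6 higher. At least 2-fold lower were 7 genes (16.7%, all genes 3.2%), namely Mug1, Mug1l1, Serpina3n, Serpinb1a, Serpinb9, Serpine2 and Wfdc18. Spink5 and Wfdc5 were at least 2-fold higher (4.76%, all genes 2.9%). Mug1 passed the filter through its BPH arrays alone, so that it had to be lower to be compared. It is nonetheless among the genes counted here as lower, as not overlapping and as having an unadjusted p under 0.05. The median difference was -0.18 on the log2 scale, beside 0.02 over all genes. It shrank to -0.01 under scaling to the 75th percentile (all genes 0.10), -0.01 with slide as a fixed block (0), -0.04 with normexp (0.01) and 0 without a filter on dim probes (0.02), and to -0.05 (0.01) when BPH+ghrelin replicate 3 was left out.

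Against sham, 37 inhibitor genes were tested in BPH+ghrelin, with 12 higher and 25 lower means. Spink8 and Serpine2 were called and lower, 5.41% of the inhibitor genes, where 6.3% of all 19197 features were called and 3.3% were called and lower. An unadjusted p under 0.05 was reached by 7 (18.9%, all genes 23.7%), and the arrays did not overlap for 11 (29.7%, all genes 30.4%). The fitted difference was 2-fold or more upward for Cst5 and Serpina3c (5.41%, all genes 3.21%) and downward for Mug1l1, Serpina3n, Serpine2, Spink8 and Wfdc5 (13.5%, all genes 4.2%). Serpina3c was above background on 0 of 3 sham arrays, and its bound is below 2-fold, as is the difference of Mug1l1 (1.40-fold) once its readings under the background limit are set to that limit. Cst5, named after its values were seen, was read at 0.78, 5.67 and 4.23 in sham and 5.08, 5.00 and 4.91 in BPH+ghrelin, and its difference of 1.44 (adjusted p = 0.451) became 0.04 without sham replicate 1. The median difference was -0.28, beside 0.04 over all genes, and -0.14 with normexp (all genes 0.01) and -0.18 without a filter on dim probes (0.02). The 3 comparisons share groups, and are given side by side without a count across them.

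**Figure D1:**
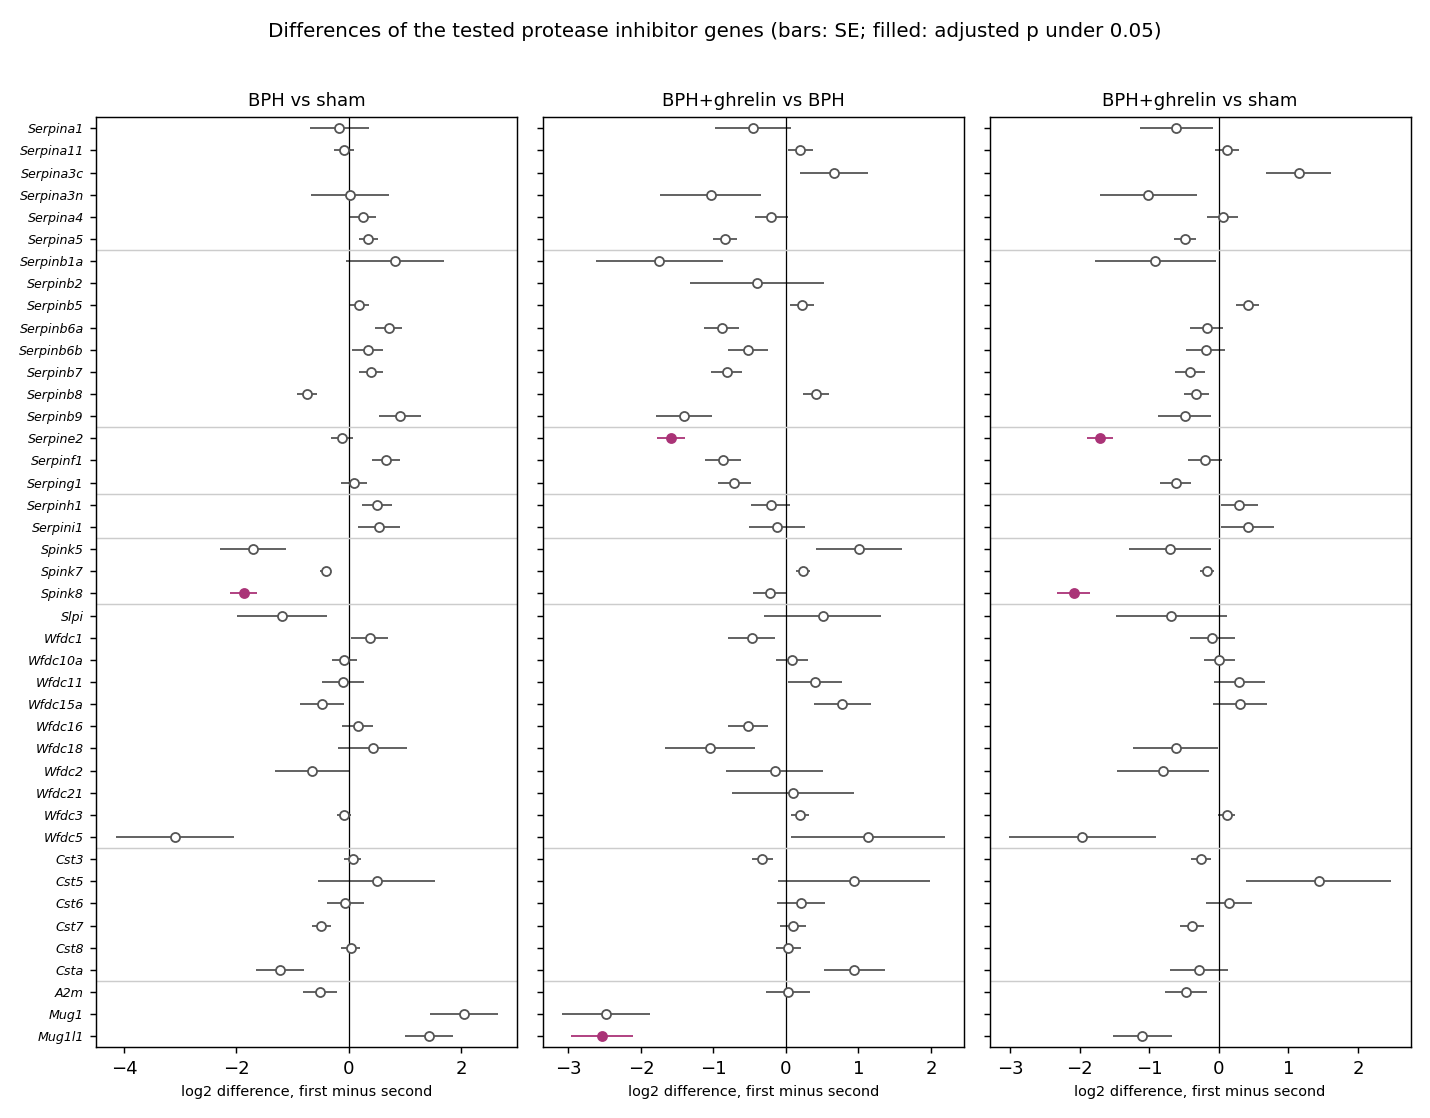
Log2 difference (first group minus second, with its SE) of each tested protease inhibitor gene in 3 panels, 1 for each comparison, with the families separated by grey lines from clade A serpins at the top to macroglobulins at the bottom. Filled points mark an adjusted p under 0.05: Spink8 in BPH against sham, Serpine2 and Mug1l1 in BPH+ghrelin against BPH, and Spink8 and Serpine2 in BPH+ghrelin against sham, all to the left of 0.

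The serpins of clades C to G include inhibitors that act on plasminogen activation, coagulation and complement, and 3 of 6 were tested. In BPH+ghrelin against BPH all 3 had a lower mean, did not overlap and had an unadjusted p under 0.05, where 39.2% of all genes did not overlap and 21.1% had such a p, with a median difference of -0.87. Serpine2 fell by the adjusted test.

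Serpine2, protease nexin-1, is a cell-surface inhibitor of thrombin, urokinase and other trypsin-like proteases. Its log2 signal was 6.16, 5.85 and 5.83 in sham, 6.14, 5.78 and 5.57 in BPH, and 4.42, 4.28 and 4.02 in BPH+ghrelin. The 3 BPH+ghrelin arrays lay below all other arrays, and sham and BPH overlapped. Serpine2 was 3.00-fold lower in BPH+ghrelin than in BPH (log2 difference -1.59, SE 0.19, n = 3, limma adjusted p = 0.0160) and 3.26-fold lower than in sham (-1.71, SE 0.19, adjusted p = 0.0030). Between BPH and sham the difference was -0.12, with a 95% interval from -0.55 to 0.32. On the slide that held BPH+ghrelin replicate 1 and the 3 BPH arrays the difference was -1.40, and on the slide of BPH+ghrelin replicates 2 and 3 and sham replicates 1 and 2 it was -1.86. With 2 arrays per group the differences from BPH and sham were -1.63 and -1.78, and with normexp background correction they were -0.52 and -0.59 and still called. The call against BPH was lost when either of BPH replicates 1 and 2 was left out (adjusted p = 0.0601 and 0.115), and when either of BPH+ghrelin replicates 2 and 3 was (0.0938 and 0.0539).

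Serping1, the C1 inhibitor of complement and kallikrein, was read at 11.34, 11.55 and 11.46 in sham, 11.93, 11.54 and 11.14 in BPH and 10.51, 10.87 and 11.10 in BPH+ghrelin. Serpinf1, pigment epithelium-derived factor, a serpin without protease inhibitory activity, was read at 8.32, 7.27 and 7.91 in sham, 8.39, 8.41 and 8.70 in BPH and 7.52, 7.67 and 7.69 in BPH+ghrelin. The BPH+ghrelin arrays of both genes lay below all BPH arrays, with differences of -0.71 (SE 0.23, adjusted p = 0.141) and -0.87 (SE 0.25, adjusted p = 0.112), neither of which passed the test. Serpinf1 was also 1.59-fold higher in BPH than in sham with an adjusted p of 0.143.

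Urokinase, a protease that Serpine2 inhibits, was in a list of 40 serine proteases chosen by function. Plau, the urokinase-type plasminogen activator, was read at 6.57, 5.71 and 6.24 in sham, 8.09, 7.72 and 7.16 in BPH and 5.84, 5.78 and 5.40 in BPH+ghrelin. Plau rose by 1.48 on the log2 scale in BPH against sham (SE 0.29, adjusted p = 0.0347) and fell by 1.98 in BPH+ghrelin against BPH (SE 0.29, adjusted p = 0.0252). Plat, the tissue-type activator, fell by 0.76 in BPH+ghrelin against sham (SE 0.18, adjusted p = 0.0458). Plau was thus called in both comparisons of the BPH group, whereas Serpine2 was called in both comparisons of the BPH+ghrelin group.

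**Figure D2:**
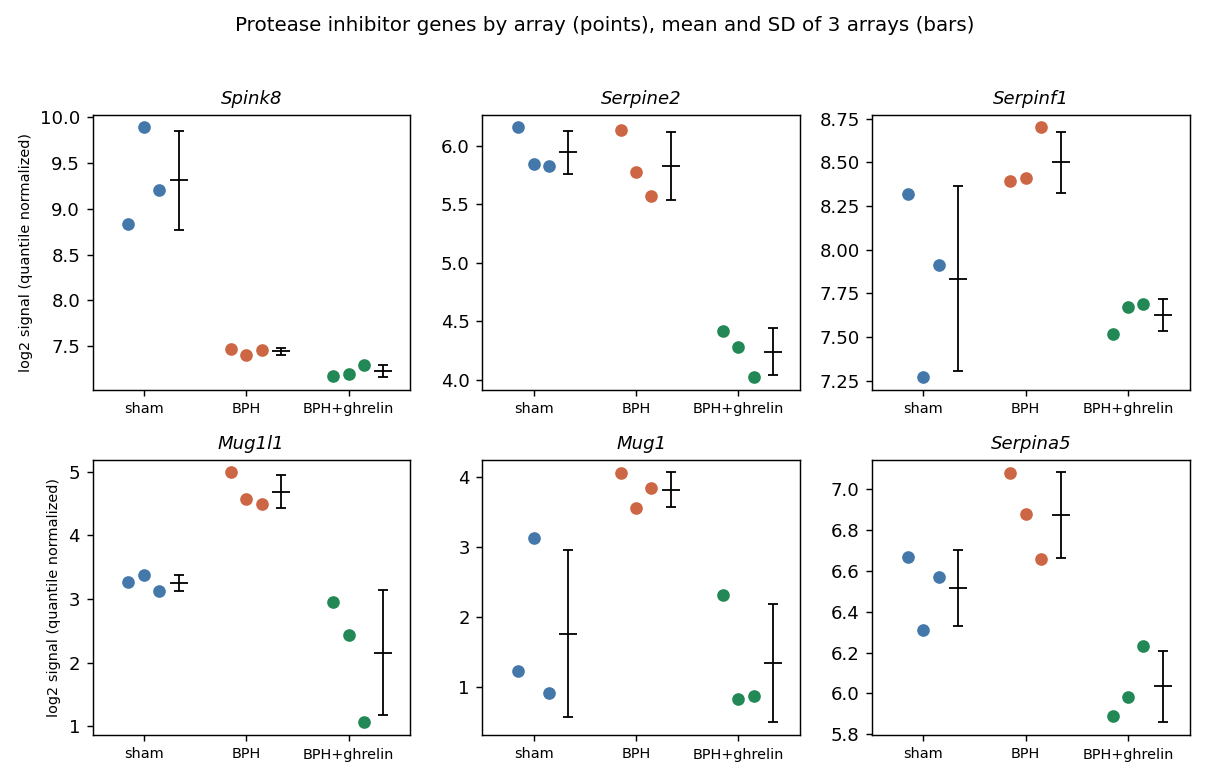
Quantile normalized log2 signal of 6 protease inhibitor genes on each of the 9 arrays (points, 3 per group, each gene on its own axis that does not start at 0), with the mean and SD of each group as bars. Spink8 lies at 8.83 to 9.89 in sham and at 7.47 or lower in the other groups, and Serpine2 at 4.42 or lower in BPH+ghrelin and at 5.57 or higher elsewhere.

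In bulk tissue, fewer cells of a type and less RNA per cell cannot be told apart, and several marker lists moved with BPH+ghrelin against BPH. The summed linear signal of 6 immune markers was 8947 to 14663 in BPH and 5396 to 8118 in BPH+ghrelin (median difference -0.82, 4 of 6 above background on all arrays, Itgam on none). For 5 smooth muscle markers it was 9962 to 15657 and 7367 to 9153 (median -0.54, all 5 above background throughout), and for 3 endothelial markers 431 to 554 and 383 to 388 (median -0.31). Of the endothelial markers Pecam1 was lower, at 9.00, 8.72 and 8.59 in BPH and 8.46, 8.46 and 8.45 in BPH+ghrelin. Cdh5 had a higher mean in BPH+ghrelin (4.54, 4.47 and 5.03 against 4.85, 4.95 and 4.81). Tek was above background on 4 of 9 arrays. For the 5 adipocyte markers measured the sums overlapped, at 5383 to 7946 in BPH and 4294 to 10567 in BPH+ghrelin (median -1.16, 2 of 5 above background throughout). Of these, Adipoq was read at 11.43, 10.95 and 9.99 in BPH but at 0.58, 10.88 and 11.94 in BPH+ghrelin and 3.28, 12.03 and 10.48 in sham. Retn alone had a higher mean in BPH+ghrelin than in BPH, at 12.05, 12.50 and 12.61 against 12.18, 12.03 and 12.02. The 6 fibroblast markers summed to 19398 to 29606 in BPH and 18531 to 25739 in BPH+ghrelin (median -0.21). Lum (6.33 to 6.98 and 4.62 to 5.39), Dcn (11.60 to 12.12 and 10.73 to 11.42) and Pdgfra (9.52 to 9.61 and 9.12 to 9.37) did not overlap. Col1a1 alone of that list had a higher mean in BPH+ghrelin. The part of all these cells in the differences of Serpine2, Serping1 and Serpinf1 was not tested.

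The macroglobulins A2m, Mug1 and Mug1l1 are broad protease traps, and the murinoglobulins Mug1 and Mug1l1 are the rodent single-chain form made chiefly in liver. Mug1l1 was read at 3.27, 3.37 and 3.12 in sham, 4.99, 4.58 and 4.50 in BPH and 2.96, 2.44 and 1.06 in BPH+ghrelin. The probe was well above background on all 3 BPH arrays, 2 of 3 sham arrays and 1 of 3 BPH+ghrelin arrays, so that the low readings have no exact level. Mug1l1 was lower in BPH+ghrelin than in BPH (fitted log2 difference -2.54, SE 0.42, limma adjusted p = 0.0368). With each reading under its array's lowest well-above-background signal set to that signal, a setting added after the data were seen, the fall was -1.79 on the log2 scale (3.47-fold) and these groups still did not overlap. In BPH against sham the fitted difference did not pass the test (1.44, SE 0.42, adjusted p = 0.0909). A second Mug1l1 probe, above background on 0 of 9 arrays, gave -0.93 and 0.97 for these comparisons. With normexp the fall measured -0.37 and was still called, on the shared slide it was -1.73, and with 2 arrays per group -2.71. The call was lost without BPH replicate 1 (adjusted p = 0.129), 2 (0.173) or 3 (0.0514), or BPH+ghrelin replicate 2 (0.127), and without a filter on dim probes (0.0543) or with the replicate number as a block (0.0629).

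Mug1 was read at 1.23, 3.13 and 0.92 in sham, 4.05, 3.56 and 3.84 in BPH and 2.31, 0.83 and 0.87 in BPH+ghrelin. It was above background on all 3 BPH arrays and on no other array. Mug1 was at least 1.57-fold higher in BPH than in sham (adjusted p = 0.0891) and at least 2.16-fold lower in BPH+ghrelin than in BPH (adjusted p = 0.0856), where such a bound sets the mean of the brighter group against the lowest signal that counted as well above background on each dimmer array. Neither difference passed the test. As shown above, Mug1 and Mug1l1 had near identical promoters, and whether their probes bind the transcripts of both was not tested. Of 12 liver plasma protein markers 6, Alb among them, were above background on 0 of 9 arrays and 2, Apoa2 and Ttr, on all 9, and the summed signal of that list was 74.7 to 154 in BPH, 78.0 to 92.1 in BPH+ghrelin and 127 to 234 in sham. A2m, the tetrameric macroglobulin, stayed between 7.80 and 9.11 on all arrays and differed by 0.03 between BPH+ghrelin and BPH (95% interval -0.66 to 0.72).

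Among Kazal type inhibitors, 3 of 7 were tested and all 3 had lower means in BPH than in sham (46.3% of all genes), each with an unadjusted p under 0.05 (26.5% of all genes). Spink8 was the gene of this family that passed the test. Its log2 signal was 8.83, 9.89 and 9.21 in sham, 7.47, 7.40 and 7.46 in BPH and 7.18, 7.20 and 7.30 in BPH+ghrelin. Every castrated, dihydrotestosterone-treated array lay below every sham array. Spink8 was 3.65-fold lower in BPH (log2 difference -1.87, SE 0.24, limma adjusted p = 0.0075) and 4.25-fold lower in BPH+ghrelin (-2.09, SE 0.24, adjusted p = 0.0035). Between BPH+ghrelin and BPH the arrays did not overlap either, but the difference of -0.22 had a 95% interval from -0.77 to 0.33. The difference from sham was -2.11 on the slide that BPH+ghrelin and sham shared, and -1.90 in BPH and -2.13 in BPH+ghrelin with 2 arrays per group. The call in BPH was lost without BPH replicate 2 (adjusted p = 0.0505) and when normalization and fit used the 6 compared arrays alone (0.0513).

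Spink5, the inhibitor of epidermal kallikreins that is lost in Netherton syndrome, varied most among the sham arrays, at 5.40, 8.10 and 7.22, against 5.52, 5.26 and 4.81 in BPH and 5.93, 6.41 and 6.26 in BPH+ghrelin. Its difference between BPH and sham of -1.71 (SE 0.59) had an adjusted p of 0.124 and depended on sham replicate 1, without which it was -2.47 (adjusted p = 0.0120). Spink7, an esophageal epithelial inhibitor, was tightly measured, at 9.21, 9.16 and 9.20 in sham, 8.80, 8.80 and 8.74 in BPH and 9.07, 8.98 and 8.99 in BPH+ghrelin. The 3 groups of Spink7 did not overlap, its difference between BPH and sham being -0.41 (SE 0.10, adjusted p = 0.0591) and that between BPH+ghrelin and BPH 0.24 (SE 0.10, adjusted p = 0.231). Spink1, the pancreatic trypsin inhibitor, was above background on 1 array only.

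The marker lists also differed between BPH and sham. The 7 markers measured of seminal vesicle and coagulating gland summed to 90426 to 157732 in sham, 718 to 28254 in BPH and 549 to 3892 in BPH+ghrelin (median difference BPH against sham -4.26, with Svs1 above background on 0 arrays). The 7 prostate secretory markers summed to 464857 to 476448 in sham, 330841 to 347828 in BPH and 351107 to 361168 in BPH+ghrelin (median -2.64). The part of these tissues in the fall of Spink8 was not tested.

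Of the 12 WAP type inhibitors 8 were above background on all 9 arrays and 11 were tested. Limma called 0 of them in each comparison, with 1, 0 and 0 at an unadjusted p under 0.05 (all genes 26.5%, 21.1% and 23.7%). Wfdc3 had the narrowest spread of these, from 16.45 to 16.91 over the 9 arrays, and differed by -0.08 between BPH and sham (95% interval -0.37 to 0.21) and by 0.20 between BPH+ghrelin and BPH (-0.10 to 0.49). Wfdc10a, chosen after its values were seen, likewise stayed between 10.73 and 11.55.

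Wfdc5, a WAP type inhibitor of epithelium, was read at 8.33, 9.58 and 8.91 in sham, 7.72, 6.86 and 2.96 in BPH and 6.86, 6.95 and 7.12 in BPH+ghrelin. All BPH arrays lay below sham, but BPH replicate 3 was far below the others and not above background. The difference of -3.09 (SE 1.06) had an adjusted p of 0.122, and a second probe gave -2.08. It was the fitted difference farthest from 0 of the 39 inhibitor genes tested there, but without BPH replicate 3 it was -1.66, nearer to 0 than that of Spink8 (-1.88). Without the same array, the difference between BPH+ghrelin and BPH turned from 1.13 to -0.31.

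Slpi, the secretory leukocyte protease inhibitor of elastase and cathepsin G, was read at 8.01, 9.76 and 8.93 in sham, 9.07, 8.28 and 5.78 in BPH and 7.74, 8.25 and 8.65 in BPH+ghrelin. Wfdc2, known as HE4, was read at 12.98, 11.60 and 12.55 in sham, 12.91, 12.17 and 10.10 in BPH and 11.75, 11.56 and 11.41 in BPH+ghrelin. Neither passed the test, with adjusted p-values from 0.367 to 0.748 for Slpi and 0.511 to 0.913 for Wfdc2. Wfdc1, a prostate stromal protein, stayed between 6.87 and 8.33, with an adjusted p of 0.430 or more.

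Some of these genes varied widely within the BPH group. The range over the 3 BPH arrays exceeded 2 log2 units for 6 of the 42 tested genes (Serpinb1a, Serpinb2, Slpi, Wfdc2, Wfdc21 and Wfdc5), against 4 in BPH+ghrelin and 5 in sham, and in all but Serpinb2 the low array was BPH replicate 3. Over all probes the range exceeded 2 for 1.57%, and BPH replicate 3 was the lowest in 51.8% of these. Other inhibitor genes, such as Wfdc1 (7.15, 7.86 and 8.33 in BPH) and Serpinb2 (0.56, 3.14 and 4.01), were highest on that array. The median range of the 42 genes was 0.58 in BPH, 0.41 in BPH+ghrelin and 0.69 in sham, beside 0.33, 0.33 and 0.61 over all probes. Serpina1f, singled out after its values were seen and not tested because 2 of 9 arrays were above background, had the widest range of any: 8.25, 7.19 and 1.14 in BPH, 2.04, 3.39 and 1.69 in sham and 0.81, 1.62 and 1.15 in BPH+ghrelin. The seminal vesicle secretory gene Semg1 ran in the same order over the BPH arrays, at 14.53, 13.63 and 7.35, while Semg1 was at 16.07 to 16.69 in sham, where Serpina1f was not above background. What BPH replicates 1 and 2 held that replicate 3 did not was not tested.

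**Figure D3:**
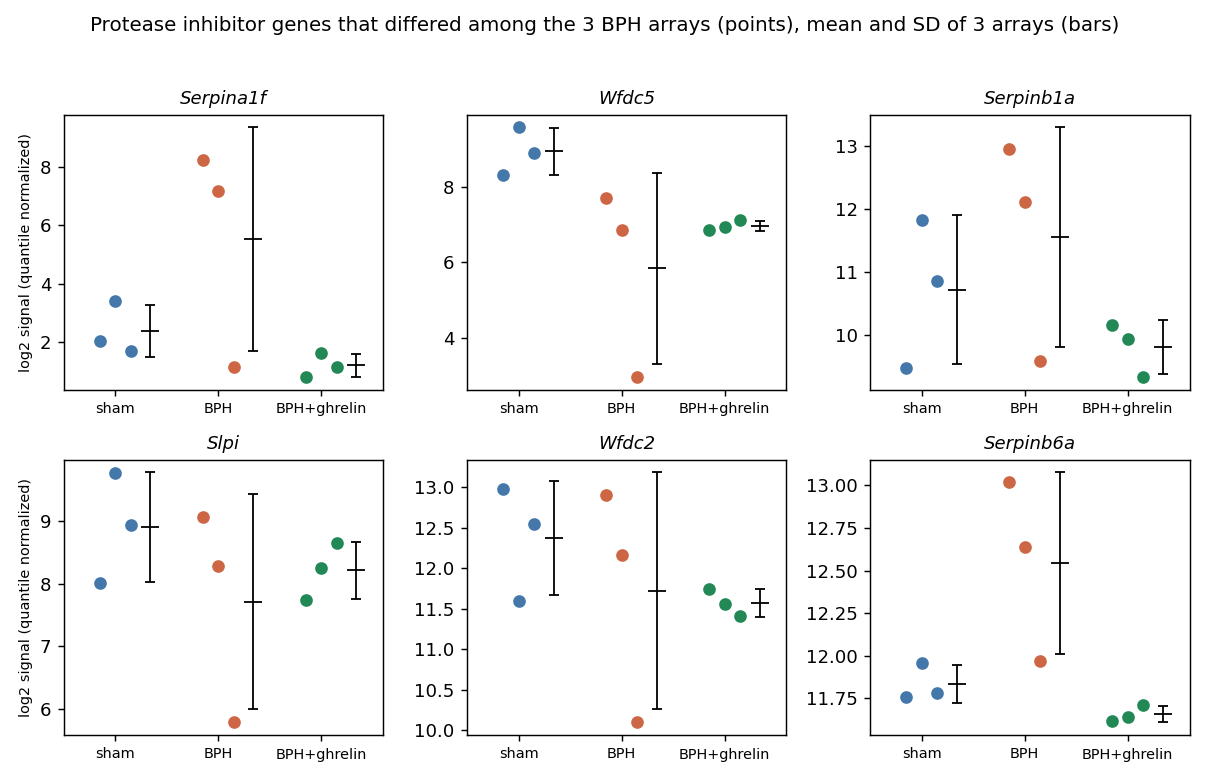
Quantile normalized log2 signal of 6 inhibitor genes, chosen after their values were seen, on the 9 arrays (points, with replicates 1 to 3 from left to right within a group and each gene on its own axis that does not start at 0) and the mean and SD of each group (bars). In each panel BPH replicate 3 is the lowest BPH array, at 1.14 for Serpina1f, 2.96 for Wfdc5, 9.59 for Serpinb1a, 5.78 for Slpi, 10.10 for Wfdc2 and 11.97 for Serpinb6a.

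Of the 13 clade B serpins 8 were tested and 0 were called by limma, with 3, 3 and 1 at an unadjusted p under 0.05 in BPH against sham, BPH+ghrelin against BPH, and BPH+ghrelin against sham, where 26.5%, 21.1% and 23.7% of all genes had such a p. Of 7 tested, 6 had a higher mean in BPH than in sham (median 0.40) and 6 of 8 a lower mean in BPH+ghrelin than in BPH (median -0.67). Serpinb9, the inhibitor of granzyme B, was read at 5.57, 3.93 and 5.27 in sham, 5.95, 5.89 and 5.67 in BPH and 4.19, 4.62 and 4.49 in BPH+ghrelin. The BPH arrays of Serpinb9 lay above both other groups, 2.65-fold above BPH+ghrelin (-1.41, SE 0.38, adjusted p = 0.102) and 1.88-fold above sham (0.91, SE 0.38, adjusted p = 0.174).

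Serpinb6a, a cytosolic inhibitor of cathepsin G and trypsin-like proteases, was read at 11.76, 11.96 and 11.78 in sham, 13.02, 12.64 and 11.97 in BPH and 11.62, 11.64 and 11.71 in BPH+ghrelin. It did not overlap in either comparison of BPH, with differences of 0.72 (SE 0.24, adjusted p = 0.117) and -0.89 (SE 0.24, adjusted p = 0.102), and without BPH replicate 3 both became calls, at 1.00 (adjusted p = 0.0361) and -1.18 (0.0273). Serpinb1a, the neutrophil elastase inhibitor of leukocytes and epithelium, was read at 9.48, 11.83 and 10.85 in sham, 12.94, 12.11 and 9.59 in BPH and 10.15, 9.94 and 9.33 in BPH+ghrelin, with an adjusted p of 0.292 or more. Serpinb5, maspin, a marker of basal epithelium, stayed between 11.26 and 11.98, with differences of 0.19, 0.23 and 0.42 in BPH against sham, BPH+ghrelin against BPH and BPH+ghrelin against sham, none of which passed the test (lowest adjusted p = 0.171). The 5 basal epithelial markers summed to 4383 to 6189 in sham and 7317 to 7715 in BPH+ghrelin (median difference 0.48). Among them Krt15 was at 11.04 to 11.38 in sham and 12.36 to 12.37 in BPH+ghrelin. Tp63, at 10.63 to 11.58 and 10.32 to 10.70, and Krt5, at 5.19 to 6.19 and 5.31 to 5.66, ran the other way in their means.

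Serpinb8, a furin inhibitor, was the clade B serpin with a lower mean in BPH than in sham, at 8.22, 8.28 and 8.16 in sham, 7.31, 7.45 and 7.70 in BPH and 8.19, 7.93 and 7.56 in BPH+ghrelin. Its difference of -0.74 between BPH and sham (SE 0.18) had an adjusted p of 0.0585, and a second probe gave -0.28. Serpinb7, megsin, chosen after its values were seen, was lower in every BPH+ghrelin array than in every BPH array (-0.82, SE 0.21, adjusted p = 0.0952). The immune list given above also ran lower in BPH+ghrelin than in BPH, whereas the granulocyte and mast cell list had a median difference of 0.44, and the part of these cells in the clade B values was not tested.

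Clade A holds the hepatic serpins of plasma. Of its 12 genes 6 were tested, and limma called 0 of them, with 0, 1 and 2 at an unadjusted p under 0.05 (all genes 26.5%, 21.1% and 23.7%). Serpina5, the protein C inhibitor, which in the male tract is secreted into seminal fluid and binds kallikreins, came nearest to the threshold. It was read at 6.67, 6.31 and 6.57 in sham, 7.08, 6.88 and 6.66 in BPH and 5.89, 5.98 and 6.23 in BPH+ghrelin. The BPH+ghrelin arrays lay below all others, 1.79-fold below BPH (-0.84, SE 0.16, adjusted p = 0.0524) and 1.40-fold below sham (-0.49, SE 0.16, adjusted p = 0.117). Alternatives put the difference from BPH on either side of the threshold. It was called under scaling to the 75th percentile (adjusted p = 0.0359), normexp (0.0470), the strictest filter (0.0482), the 6 compared arrays alone (0.0307), slide as a random block (0.0184), in the deposited matrix (0.0459) and without BPH replicate 3 (0.0475). It was not called with the mean of probes (0.0545), the other variance model (0.0536) or 2 arrays per group (0.949), without a filter (0.0722), with the replicate block (0.112) or slide as a fixed block (0.311), or without any other array of the pair of groups (0.0891 to 0.232).

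Serpina3n, an acute-phase inhibitor of leukocyte proteases, varied widely within the treated groups, at 7.64, 8.76 and 9.49 in BPH and 6.08, 7.88 and 8.82 in BPH+ghrelin, against 8.91, 8.24 and 8.67 in sham. Its difference of -1.04 between BPH+ghrelin and BPH had an SE of 0.70 and an adjusted p of 0.418. Serpina3c, a rodent copy of the same antichymotrypsin cluster, was above background on every BPH+ghrelin array and on 0 of 3 sham arrays. The readings overlapped, at 3.20, 3.79 and 4.59 in BPH+ghrelin and 2.14, 3.52 and 2.48 in sham. By the bound Serpina3c was at least 1.62-fold higher in BPH+ghrelin (limma adjusted p = 0.181). Serpina1, alpha-1-antitrypsin, was near background throughout, from 1.32 to 3.54, with 6 of 9 arrays above it.

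Serpinh1, the collagen chaperone HSP47, and Serpini1, neuroserpin, are the tested genes of clades H and I. Serpinh1 was read at 9.02, 8.93 and 8.96 in sham, 8.85, 9.49 and 10.08 in BPH and 9.17, 9.28 and 9.35 in BPH+ghrelin. All 3 BPH+ghrelin arrays lay above sham, with a difference of 0.30 (95% interval -0.32 to 0.91), and the BPH arrays were spread on both sides. Serpini1 ran from 2.71 to 4.51, with an adjusted p of 0.386 or more in each comparison.

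In all, 6 cystatins were tested and 0 were called by limma, with 2, 0 and 0 at an unadjusted p under 0.05 (all genes 26.5%, 21.1% and 23.7%). Cst3, cystatin C, the general extracellular cathepsin inhibitor, was read at 13.08, 12.68 and 12.80 in sham, 12.98, 12.97 and 12.83 in BPH and 12.46, 12.57 and 12.75 in BPH+ghrelin. The BPH+ghrelin arrays lay below all BPH arrays by a mean of 0.33 on the log2 scale (95% interval -0.66 to 0.01), a direction that became 0.01 under scaling to the 75th percentile. Cst6, cystatin M, an inhibitor of legumain and cathepsin L, stayed between 12.46 and 13.59. Csta, the cytosolic cystatin A of epithelium, was read at 3.14, 4.24 and 3.19 in sham, 2.42, 1.54 and 2.93 in BPH and 3.68, 3.14 and 2.90 in BPH+ghrelin, and had a fitted difference of -1.22 between BPH and sham (adjusted p = 0.124), where 1 of 3 BPH arrays was above background, or -0.88 with the readings under the background limit set to it. Cst7, leukocystatin, chosen after its values were seen, differed by -0.49 between BPH and sham (adjusted p = 0.135). Cst8, the testis and epididymis cystatin, was above background on 4 of 9 arrays at 2.44 to 3.05. Of 12 epididymal markers 7, among them Lcn5, Gpx5 and Ros1, were above background on 0 of 9 arrays, and 4 (Lcn10, Lcn12, Adam7 and Crisp1) on all 9.

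The targets of these families were counted in lists chosen by function. Of 13 cysteine proteases 12 were tested, and in BPH+ghrelin against BPH all 12 had a lower mean (median -0.31), where 48.3% of all genes did. Of these Ctss, a cathepsin of antigen-presenting cells, fell by 0.90 (SE 0.13, limma adjusted p = 0.0240) and Ctsh fell by 0.61 (SE 0.10, adjusted p = 0.0390). These calls were 16.7% of the tested list, where 1.48% of all genes were called. The 6 immune markers had a median difference of -0.82 in the same comparison, and their part in these values was not tested. In BPH against sham 11 of the 12 had a higher mean (median 0.40), with 8.33% lower beside 46.3% of all genes. Limma called 0 of them, with 4 at an unadjusted p under 0.05 (33.3%, all genes 26.5%). Of 40 serine proteases 22 were tested in BPH against sham, where 1 was called higher (Plau) and 1 lower (F2, prothrombin), 9.09% of those tested against 4.33% of all genes. Of 17 leukocyte proteases 13 were tested in that comparison and 4 were called (30.8%), all lower: the mast cell or granulocyte proteases Mcpt8 (-1.73), Mcpt9 (-1.48) and Mcpt10 (-1.33) and granzyme A, Gzma (-1.19), with adjusted p-values of 0.0037, 0.0070, 0.0101 and 0.0319. The 5 granulocyte and mast cell markers measured summed to 191 to 247 in BPH and 267 to 661 in sham (median difference -0.56). Of these, S100a8 was read at 4.06, 7.64 and 6.17 in sham and 4.21, 3.65 and 3.05 in BPH. Cpa3 stayed between 6.94 and 7.30 in both groups. Kit alone had a higher mean in BPH, at 3.93, 3.82 and 3.74 against 4.19, 0.54 and 3.11 in sham. The part of these cells in the protease values was not tested. Ghrelin-treated arrays had 1.95-fold more Mcpt8 signal than BPH arrays (0.96, SE 0.18, adjusted p = 0.0468).

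A list of 22 protease inhibitors outside the naming rule was fixed by function, of which 12 were tested in BPH against sham. Tfpi, the tissue factor pathway inhibitor, fell from 10.53, 10.65 and 10.49 in sham to 7.73, 7.85 and 7.95 in BPH and 7.84, 7.98 and 8.11 in BPH+ghrelin. Tfpi was 6.54-fold lower in BPH (-2.71, SE 0.12, adjusted p = 1.47e-04) and 5.97-fold lower in BPH+ghrelin (-2.58, SE 0.12, adjusted p = 1.49e-04), as Spink8 was lower in both. Spint1, the hepatocyte growth factor activator inhibitor, was 1.94-fold higher in BPH than in sham (0.96, SE 0.19, adjusted p = 0.0355). Timp1, an inhibitor of matrix metalloproteinases, exceeded its sham level 2.25-fold in BPH+ghrelin (1.17, SE 0.18, adjusted p = 0.0117).

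The called genes of these function lists were refitted in the same way. With 2 arrays per group 0 of them kept an adjusted p under 0.05 in limma, and their differences kept their direction, as for Tfpi (-2.75 and -2.62), Mcpt8 (-1.70 in BPH against sham) and Plau (1.49 and -2.01). With slide as a fixed block Tfpi in BPH+ghrelin against sham stayed called (adjusted p = 0.0174) and every other call of these lists was lost, with an adjusted p of 0.154 for Tfpi in BPH against sham, 0.783 and 0.295 for Plau, 0.369 for Mcpt8 in BPH against sham, 0.255 for Ctss and 0.156 for Timp1. The replicate number as a block ended the calls of Plau (0.0505), F2 (0.0565), Gzma (0.0815) and Spint1 (0.0572) in BPH against sham. It ended those of Plau (0.0605), Ctss (0.0795), Ctsh (0.102) and Mcpt8 (0.108) in BPH+ghrelin against BPH, and of Plat (0.107) and Mcpt8 (0.102) in BPH+ghrelin against sham. Further alternatives ended calls in BPH against sham. With the 6 compared arrays alone these were Plau (limma adjusted p = 0.105), F2 (0.0816), Gzma (0.0755), Mcpt10 (0.058) and Spint1 (0.116). Without a filter on dim probes they were Plau (0.0521) and Spint1 (0.0533), and normexp ended that of Gzma (0.077). Within the shared slides the differences were -1.81 for Plau, -0.93 for Ctss, -0.68 for Ctsh and 0.98 for Mcpt8 in BPH+ghrelin against BPH, and -2.54 for Tfpi, 1.17 for Timp1 and -0.65 for Plat in BPH+ghrelin against sham. Each array left out in turn kept the calls of Tfpi in both comparisons and of Mcpt8 and Mcpt9 in BPH against sham, and every other call was lost without at least 1 array. The call of Mcpt10 was lost without BPH replicate 2 (adjusted p = 0.0666) and that of Timp1 without BPH+ghrelin replicate 2 or sham replicate 3 (up to 0.0638), and the calls of Plau, Plat, Ctss, Ctsh, F2, Gzma and Spint1, and of Mcpt8 against BPH, each without any 1 of several arrays, with an adjusted p of up to 0.231.

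**Figure D4:**
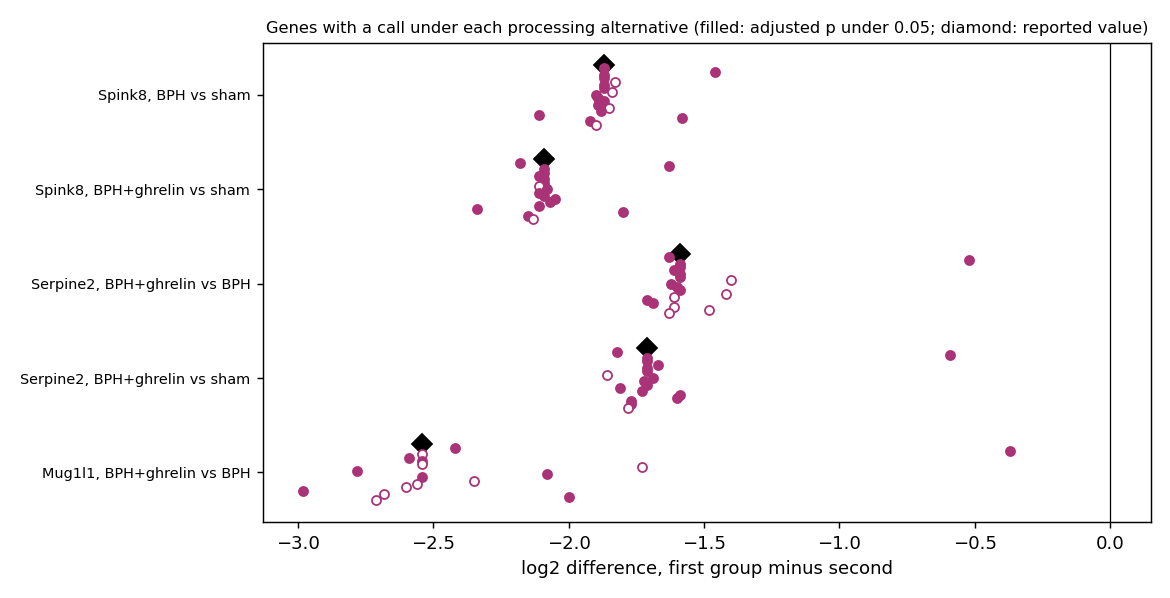
Log2 difference (first group minus second) of the 3 inhibitor genes with a call, as reported (diamond) and under each alternative in processing (circles), with filled symbols for an adjusted p under 0.05 and open symbols otherwise. All symbols lie left of 0, and the points nearest to 0 for Serpine2, -0.52 and -0.59, and for Mug1l1, -0.37, come from normexp background correction.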

How the data were processed

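The deposited scanner files of 9 one-colour Agilent rat arrays gave intensity values per spot, which the authors' Feature Extraction software had background-subtracted. The authors also deposited a table of log2 values, quantile normalized in GeneSpring GX, used only as an alternative. Array files name build rn4, and no array coordinate is given. Control spots and outlier spots were removed, the spots of a probe averaged, log2 taken and the 9 arrays quantile normalized. Of 30356 probes 17998 (59.3%) were named through RefSeq accessions (gene table of build GRCr8). A probe with no named gene was kept under its accession and counted among all genes tested. Where several probes of a gene passed, the one with the highest mean over all arrays stood for it. One limma model (version 3.58.1 in R 4.3.3) of 3 groups was fitted over all genes tested, with Benjamini-Hochberg adjustment over them and a call at an adjusted p under 0.05. It was tested on simulated data. The study's methods ask for an increase of 1-fold, which its results define as a doubling, and 2-fold is used here. Motifs were searched in Python, and promoters aligned with Biopython 1.88.

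Named genes were every inhibitor gene called, up to 5 per comparison and direction with the largest fold at an unadjusted p under 0.05, and 30 fixed by role, of which Serpinb6, Spink3 and Mug2 had no matched probe here. One further inhibitor gene stayed in the fit over all genes but is not reported here. The inhibitor genes and all lists were chosen with earlier results of these data known. Alternatives were another scaling, normexp background correction (offset 50), 2 other filters, the mean of probes, 6 arrays only, replicate and slide blocks, the deposited table, another variance model, and each array left out. The number of arrays limits the precision.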

Additional observations from a re-analysis of the deposited data

How the results depend on the processing

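Of 1491 values of single named genes under an alternative, 1430 kept the direction reported. A direction was read only where the value exceeded its SE or was called, and 3 such values turned: Cst3 in BPH+ghrelin against BPH (0.01, scaling to the 75th percentile), Wfdc5 in the same comparison (-0.31 without BPH replicate 3, range over single arrays left out -0.31 to 2.05) and Serpina1 in BPH+ghrelin against sham (0.08 without BPH+ghrelin replicate 3, range -1.01 to 0.08). Except where an alternative tests fewer genes or arrays the cause was not tested.

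Counts of called inhibitor genes were 1, 2 and 2 in BPH against sham, BPH+ghrelin against BPH, and BPH+ghrelin against sham. Counts that moved by over 1.5 times were as follows. In BPH against sham they were 4 with normexp, 3 with the filter on all 6 arrays, 0 with slide as a fixed block, 13 with slide as a random block, 3 in the deposited matrix, and 0 with 2 arrays per group. In BPH+ghrelin against BPH they were 1 without a filter, 8 with the 6 compared arrays only, 1 with the replicate block, 0 with slide as a fixed block, 8 with slide as a random block (correlation within slides -0.208), 4 in the deposited matrix, and 0 with 2 arrays per group. In BPH+ghrelin against sham they were 0 with slide as a fixed block and 0 with 2 arrays per group. Over all genes the calls moved too, in BPH against sham from 847 to 2 with the fixed and 7088 with the random slide block, and in BPH+ghrelin against BPH from 293 to 2 and 1830. Under the fixed slide block 4, 9 and 5 inhibitor genes had an unadjusted p under 0.05 in limma. Without 1 array each, the counts ran from 0 to 4, 0 to 3 and 2 to 4.

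Inhibitor genes at least 2-fold higher were 2 in each comparison. In BPH against sham they were 0 with normexp, 4 without a filter and 0 with the filter on all 6 arrays. In BPH+ghrelin against BPH they were 0 with normexp, 1 with the filter on all 6 arrays, 1 with the mean of probes, 4 with slide as a fixed block and 1 with 2 arrays per group. In BPH+ghrelin against sham they were 0 with normexp, 5 without a filter, 0 with the filter on all 6 arrays and 1 in the deposited matrix. Genes at least 2-fold lower, 5, 7 and 5 as reported, were 2, 1 and 2 with normexp. In BPH against sham they were 3 with the filter on all 6 arrays and 8 with slide as a fixed block. Without 1 array each, the higher counts ran from 2 to 5, 1 to 3 and 0 to 2 and the lower counts from 4 to 6, 5 to 7 and 4 to 8.

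The replicate numbers did not pair the samples, since deviations of same-numbered arrays correlated between -0.143 and 0.262. With the replicate block, Serpine2 was the 1 inhibitor gene called in BPH+ghrelin against BPH, where 17 of all genes were called. Scaling to the 75th percentile moved the median difference of all genes from 0.04 to -0.09 in BPH against sham, from 0.02 to 0.10 in BPH+ghrelin against BPH and from 0.04 to 0.00 in BPH+ghrelin against sham. Values near background, as for Mug1 and Mug1l1, are limited by signal over background.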
